A study of Homo sapiens with 4 samples.

Results

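CIRBP and RBM3 are the classical cold-inducible RNA-binding genes of mammalian cells, and their mRNA levels were followed in A549 and 293T cells after 2 h in a magnetic field. They were taken as the rows of the deposited expression table with those gene symbols, which are 2 of the 26348 genes listed. Both genes were above 0 in all 12 libraries and both were among the 13811 genes kept for testing. A549 is an epithelial line from a human non-small cell lung cancer, and 293T is a human embryonic kidney line that carries the SV40 large T antigen. The 4 groups were A549 cells exposed to the field for 2 h, A549 cells without a field, 293T cells exposed for 2 h and 293T cells without a field, with 3 libraries each. No other agent or gene change is labelled, and each group stands for 1 established line. The field's source, strength and frequency, the temperature of the cultures and any batch or date were not found in the labels or notes used here. The labels call the 3 libraries replicates without saying whether separate cultures were grown, and the p-values therefore reflect library-to-library spread that may be only technical.

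Both proteins are small, glycine-rich and carry a single RNA recognition motif. Cells make more of them at mildly lowered temperature and less at raised temperature, in the opposite direction to the heat shock chaperones. They bind mRNAs, alter their stability, polyadenylation and translation, and have been tied to circadian rhythm, cell survival and growth. The control of both by temperature includes alternative splicing, with transcript forms that are degraded, a process in which the CLK kinases and the splicing factor HNRNPH1 take part.

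The human genes lie apart from each other in the genome. On the RefSeq annotation of GRCh38.p14, CIRBP spans chr19:1269332-1274880 and RBM3 spans chrX:48574484-48581162, both on the plus strand. The RefSeq promoter sequences are printed because both genes fell in the exposed libraries of both lines and their windows differ in the motifs searched. Each runs 5′ to 3′ over the 250 bases before the annotated start, at chr19:1269082-1269331 for CIRBP and chrX:48574234-48574483 for RBM3, and capitals mark the motif matches described after them.
CIRBP: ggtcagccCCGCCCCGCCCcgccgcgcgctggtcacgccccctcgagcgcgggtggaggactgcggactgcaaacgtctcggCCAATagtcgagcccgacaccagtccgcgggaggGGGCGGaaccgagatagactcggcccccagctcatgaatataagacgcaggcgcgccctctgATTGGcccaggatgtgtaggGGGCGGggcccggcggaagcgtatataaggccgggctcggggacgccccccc
RBM3: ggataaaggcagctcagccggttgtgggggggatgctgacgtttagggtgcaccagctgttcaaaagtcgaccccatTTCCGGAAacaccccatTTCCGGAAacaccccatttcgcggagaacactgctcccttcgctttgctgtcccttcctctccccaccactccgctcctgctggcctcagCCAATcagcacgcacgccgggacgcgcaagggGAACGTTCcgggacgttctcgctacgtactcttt

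The CIRBP promoter had a GC content of 71.2% and the RBM3 promoter 59.6%, against a median of 58% over 27305 promoters of the same length. Motifs were searched on both strands. The GC box GGGCGG, bound by SP1 and related factors, occurred 4 times in the CIRBP promoter, where the pair farthest upstream shares 1 base, and was not found in the RBM3 window. Of all promoters, 42.3% held it and 24.4% held it at least 2 times. The CCAAT box, CCAAT, occurred 2 times in CIRBP and 1 time in RBM3, and was found in 33.0% of all promoters. The RBM3 promoter held the letters TTCNNGAA, one arrangement of neighbouring half-sites of a heat shock element, at -173 to -166 and again at -156 to -149 relative to the start, in both places as TTCCGGAA. These letters were found in 6.72% of all promoters, in 0.363% at least 2 times, and in 4 of 24 promoters of heat shock genes. The other arrangement, GAANNTTC, occurred in RBM3 1 time, at -34 to -27, and was found in 5.85% of all promoters and in 10 of the 24 heat shock promoters. Neither arrangement was found in the CIRBP window, and neither window held the exact letters TATAAA, found in 11.1% of promoters. Variants of TATAAA were not searched. The letters TCCCCGCC of the mild cold response element described for mouse Cirbp were in neither human window and in 7.70% of all promoters. These matches are letters in a window and not measured binding sites.

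CIRBP mRNA was lower in exposed cells of both lines. Its level is given as FPKM, fragments per kilobase of gene and per library size, in each library. In A549 it was at 14.7, 14.0 and 16.9 FPKM with the field, against 26.1, 28.6 and 27.7 FPKM in the controls. The exposed A549 cells thus held 0.555 of the control level, and no exposed library reached the lowest control. In 293T it was at 22.0, 23.2 and 25.0 FPKM with the field, against 33.8, 33.1 and 34.5 FPKM in the controls, a ratio of means of 0.693. Here too the groups did not overlap. The log2 fold change, on the log2(FPKM + 1) scale, was -0.81 in A549 (SE 0.06, 95% interval -0.95 to -0.67, adjusted p = 3.44e-06). In 293T it was -0.51 (SE 0.06, 95% interval -0.65 to -0.38, adjusted p = 0.000136).

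RBM3 mRNA was more abundant than CIRBP mRNA in every library and was also lower in exposed cells, by a smaller fraction. In A549 it was at 53.9, 57.8 and 58.3 FPKM with the field, against 73.5, 73.7 and 69.6 FPKM in the controls. In 293T RBM3 was at 90.5, 90.8 and 97.3 FPKM with the field, against 107, 113 and 111 FPKM in the controls. All 3 exposed libraries of each line lay below all 3 of its controls. RBM3 fell by 21.6% in A549, with a log2 difference of -0.35 (SE 0.04, adjusted p = 5.45e-05). RBM3 fell by 15.9% in 293T, with a log2 change of -0.25 (SE 0.04, adjusted p = 0.000679).

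**Figure D1:**
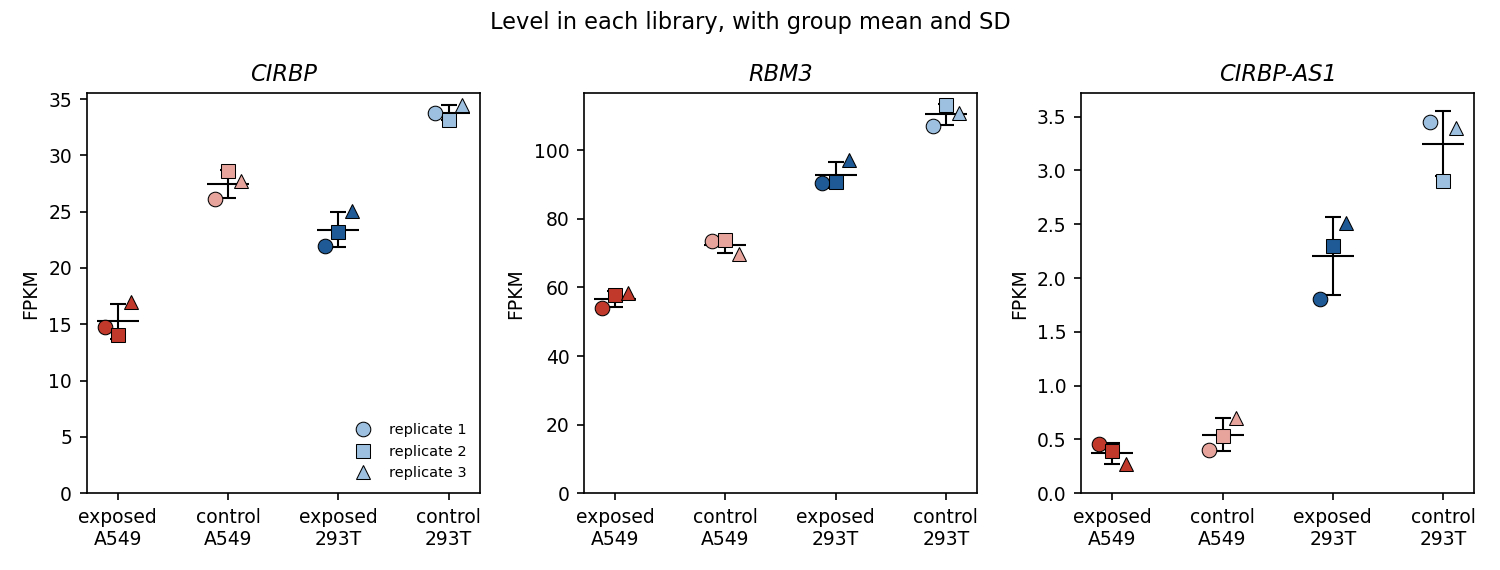
Levels of CIRBP, RBM3 and the antisense gene CIRBP-AS1 in FPKM (vertical axes from 0) in each of the 12 libraries, grouped by line and exposure, with the group mean and SD (n = 3). For CIRBP and RBM3 every exposed library lies below every control library of its line, whereas the A549 libraries of CIRBP-AS1 overlap and reach at most 0.703 FPKM.

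These 2 falls were read against the falls of all genes. In A549, 26.9% of the genes tested passed the threshold as lower, and in 293T 24.2% did, so a call alone sets neither gene apart. All exposed libraries lay below all controls for 32.6% of genes in A549 and 30.8% in 293T, and 14.2% of genes were called lower in both lines. The size of the CIRBP fall was rarer than the call. Only 28 of the 13811 genes, or 0.203%, had a lower log2 fold change than CIRBP in A549, and 159, or 1.15%, did in 293T. These ranks hold on the log2(FPKM + 1) scale, which shrinks the falls of low genes, and were not taken on another scale. For RBM3 the numbers were 1008 genes (7.30%) in A549 and 1676 genes (12.1%) in 293T, so RBM3 sat well inside the range of the genes that were called lower. The median log2 fold change of all genes was -0.04 in A549 and -0.03 in 293T.

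**Figure D2:**
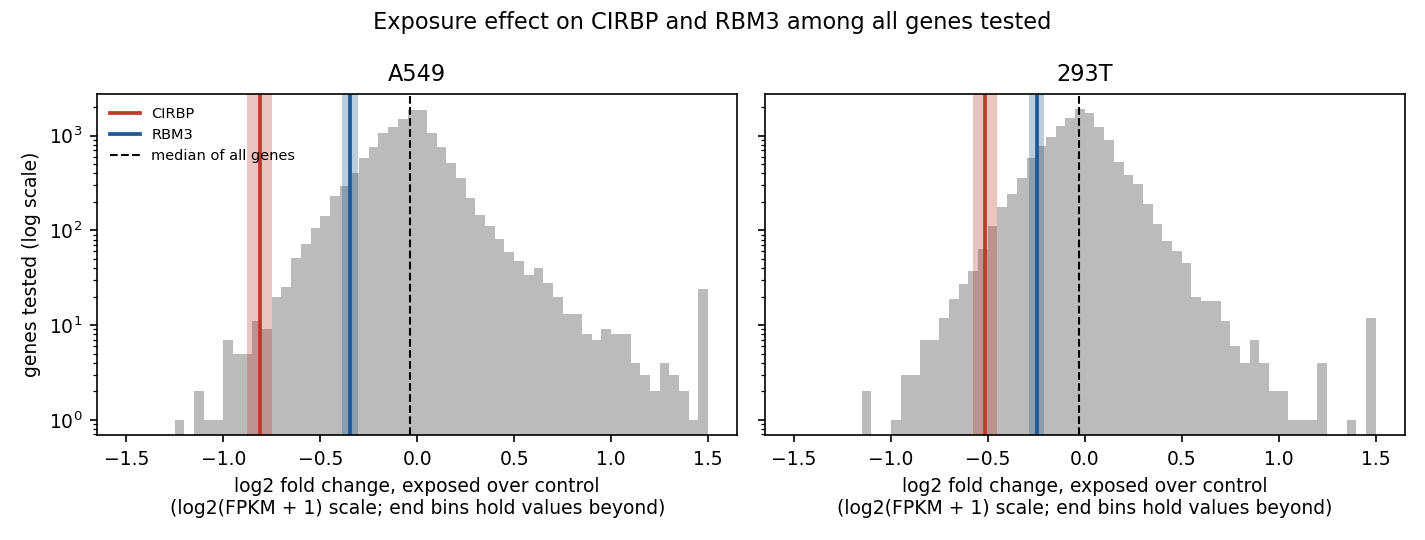
Histograms of the log2 fold change, exposed over control, of all 13811 genes tested in A549 and in 293T, with the number of genes on a log axis. Vertical lines mark CIRBP and RBM3, their shaded bands are ± 1 SE, and the dashed line is the median of all genes. CIRBP lies at -0.81 and -0.51, far in the lower tail, and RBM3 at -0.35 and -0.25.

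Because FPKM is relative to the library total, very abundant transcripts that rise push all others down. After centring each library on its median the CIRBP values were -0.76 in A549 and -0.49 in 293T, and the RBM3 values were -0.29 in A549 and -0.22 in 293T, all past the threshold. The split of calls moved more than the genes did. In A549, 1837 genes were called higher and 3711 lower as deposited, but 2695 higher and 2525 lower after centring. In 293T the calls were 1897 higher and 3346 lower as deposited, and 2271 higher and 2720 lower after centring.

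The fall of CIRBP was deeper in A549 than in 293T, but the call of this difference was fragile. The difference of the log2 fold changes, A549 minus 293T, was -0.30 (SE 0.09, 95% interval -0.49 to -0.10, adjusted p = 0.0474), where 12.5% of genes were called and 7.03% were called lower. The adjusted p ranged over 0.00819 to 0.102 when single libraries were left out, and 9 of these 12 fits did not pass. For RBM3 the difference was -0.10 (SE 0.06, 95% interval -0.22 to 0.03, adjusted p = 0.3). An RBM3 difference of either sign is inside that interval.

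Less CIRBP per RBM3 was measured in every exposed library than in any control of its line. The ratio of CIRBP to RBM3, both per length, was 0.273, 0.243 and 0.291 in the exposed A549 libraries, against 0.355, 0.388 and 0.398 in the A549 controls. In 293T it was 0.243, 0.255 and 0.257 in the exposed libraries, against 0.315, 0.292 and 0.311 in the controls. The exposed libraries of both lines lay together, between 0.243 and 0.291, and every one was under its controls. The log2 ratio differed by -0.50 in A549 and by -0.28 in 293T, and the two-sided exact permutation test gave p = 0.1 in each, the smallest that 3 libraries against 3 allow.

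Without a field the lines already differed in both genes, and more in RBM3. CIRBP averaged 27.5 ± 1.26 FPKM in A549 controls and 33.8 ± 0.668 FPKM in 293T controls (SD, n = 3 each), a log2 change of -0.29 (SE 0.06, adjusted p = 0.000784). RBM3 averaged 72.3 ± 2.30 FPKM in A549 controls and 110.4 ± 3.14 FPKM in 293T controls, a log2 change of -0.60 (SE 0.04, adjusted p = 9.27e-09). The lines differ in most genes. In this comparison 88.3% of genes were called, 55.9% of genes as lower in A549, and the median log2 fold change of all genes was -0.25. Quantile normalization moved that median to -0.15, CIRBP to -0.18 (adjusted p = 0.0148) and RBM3 to -0.53. Rescaling to TPM moved the median to -0.41, CIRBP to -0.42 and RBM3 to -0.74.

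From the lowest level upward, the CIRBP order was exposed A549, exposed 293T, control A549, control 293T. The RBM3 order was exposed A549, control A549, exposed 293T, control 293T. Neighbours in these orders did not overlap. All A549 controls lay below all 293T controls for 56.4% of genes. For CIRBP, the nearest pair was the exposed 293T libraries with at most 25.0 FPKM of CIRBP and the A549 controls with at least 26.1 FPKM, which were not compared by a test. The depth was 1808 to 4490 counts per library for CIRBP and 8927 to 18832 for RBM3, recovered from the FPKM values. Counting error was at most 2.35% of the CIRBP level. The coefficient of variation of CIRBP over libraries was 9.93% in exposed A549 and 6.60% in exposed 293T cells, against 4.60% in A549 controls and 1.98% in 293T controls.

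Within the exposed groups, replicate 3 lay closest to the controls for both genes in both lines. Relative to the mean of its controls, CIRBP stood at 53.7%, 51.2% and 61.7% in exposed A549 replicates 1, 2 and 3, and at 65.1%, 68.6% and 74.1% in exposed 293T replicates 1, 2 and 3. RBM3 stood at 74.6%, 79.9% and 80.6% in A549 and at 81.9%, 82.2% and 88.1% in 293T, in the same order of replicates. The libraries with the number 3 thus kept the largest share of both mRNAs, but for RBM3 in A549 replicates 2 and 3 were nearly equal. The counting error of RBM3 in exposed A549 was up to 1.06%, so their order is not resolved. Replicate 3 was also the exposed library with the least HSPA1A in both lines. HSPA1A, the inducible cytosolic HSP70, was at 623, 706 and 425 FPKM in exposed A549 replicates 1, 2 and 3, against 48.6 to 51.2 FPKM in controls. In 293T HSPA1A was at 148, 116 and 71.8 FPKM in the exposed replicates, against 8.85 to 9.53 FPKM in controls. In both lines the exposed library with the most HSPA1A had the least CIRBP, and the one with the least HSPA1A had the most CIRBP. RBM3 did not keep this order in A549, where replicate 1 was lowest, and a link was not tested. HSPA1A and HSPA1B are near-identical copies that may share reads. For HSPA6, another inducible HSP70, and for the co-chaperone DNAJB1, it was replicate 2 that stood apart in A549, with 99.97, 431 and 95.9 FPKM of HSPA6 and 264, 470 and 244 FPKM of DNAJB1 in exposed A549 replicates 1, 2 and 3. HSPA1B and DNAJB1 peaked in the same exposed libraries as HSPA1A. In 293T HSPA6 was at 26.0, 27.5 and 3.58 FPKM in exposed replicates 1, 2 and 3, so its highest library was not the one lowest in CIRBP. Without exposed A549 replicate 3 the CIRBP log2 fold change in A549 was -0.89 and that of RBM3 -0.37. Without exposed 293T replicate 3 the values in 293T were -0.56 and -0.28. The part of these library differences in the other results was not tested.

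**Figure D3:**
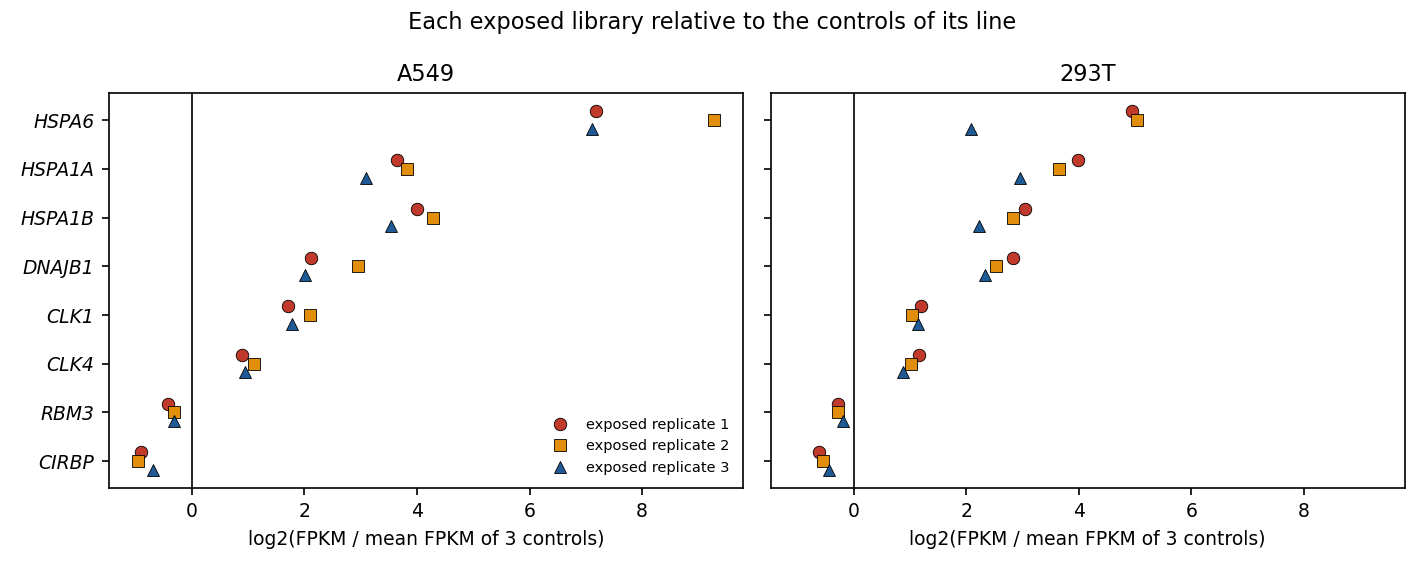
Each exposed library as log2 of its FPKM over the mean FPKM of the 3 controls of its line, for 4 heat shock genes, CLK1, CLK4, RBM3 and CIRBP, in A549 and 293T. The vertical line at 0 is the control mean and the symbols are the 3 exposed replicates. CIRBP and RBM3 lie left of 0 in every exposed library and the other genes right of it. Replicate 3 is nearest to 0 for the 4 heat shock genes, CIRBP and RBM3, but for RBM3 in A549 replicate 2 is almost as near.

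Chaperone and co-chaperone genes, which cells raise when proteins unfold, moved opposite to the cold-inducible pair. Of 26 heat shock genes 25 were tested. In A549, 24 rose and 1 fell, the heat shock factor HSF2, named after its values were seen, with a list median log2 fold change of 1.39, where 13.3% of all genes were called higher. In 293T, 23 rose and HSF2 fell, with a median of 0.52, where 13.7% of all genes were called higher. HSPA1B rose with log2 fold changes of 3.90 in A549 (adjusted p = 4.01e-07) and 2.69 in 293T (adjusted p = 7.52e-06). HSPA4, an HSP110-type exchange factor, rose by 0.86 in A549 and 0.15 in 293T, and DNAJA1, a J-domain co-chaperone, by 1.08 in A549 and 0.49 in 293T. The summed level of the list was 8607 to 11792 FPKM in exposed A549 cells, against 4431 to 4654 FPKM in A549 controls. In 293T the sum was 7111 to 8921 FPKM in exposed cells, against 4874 to 4927 FPKM in controls. The part of this rise in the fall of CIRBP and RBM3 was not tested.

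In A549 as deposited, genes known to control CIRBP and RBM3, or to bind their products, were called at shares close to those of all genes. Of 19 such genes, 3 rose and 5 fell in A549 (median -0.07), and 5 rose and 3 fell in 293T (median 0.03). Over all genes 13.3% were called higher and 26.9% lower in A549, and 13.7% higher and 24.2% lower in 293T. The 293T rises of the list were above that share and its falls below it, and whether the list differs was not tested. After median centring, 6 of the list rose and 2 fell in A549, where 2695 of all 13811 genes were called higher and 2525 lower. After rescaling without mitochondrially encoded genes 8 fell in A549, where 4018 of 13798 genes were called lower. CLK1, a kinase of SR splicing factors whose activity depends on temperature, rose the most. It was at 57.3, 75.9 and 60.8 FPKM in exposed A549 libraries, against 18.4, 17.0 and 17.5 FPKM in controls, which gives a log2 change of 1.81 (SE 0.08, adjusted p = 3.70e-07). In 293T CLK1 was at 46.4, 41.8 and 44.9 FPKM in exposed libraries, against 20.2, 20.3 and 20.5 FPKM in controls, which gives a log2 change of 1.09 (SE 0.08, adjusted p = 8.34e-06). Its relative CLK4 rose by 0.88 in A549 (adjusted p = 3.09e-06) and 0.94 in 293T (adjusted p = 7.52e-06). EIF4G1, the scaffold of the cap-binding translation complex, fell by 0.18 in A549 and by 0.24 in 293T, and TIAL1, an RNA-binding protein of stress granules, rose by 0.16 in A549 and 0.22 in 293T. These 4 genes were called in both lines.

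Some regulators were looked up for their roles after values had been seen. HNRNPH1, which acts on splicing of the RBM3 poison exon, averaged 126.5 ± 4.49 FPKM in exposed A549 cells and 119.3 ± 5.46 FPKM in A549 controls, and 239.8 ± 8.55 FPKM in exposed 293T cells and 232.2 ± 2.93 FPKM in 293T controls (SD, n = 3 each). Its log2 fold changes of 0.08 (adjusted p = 0.101) and 0.05 (adjusted p = 0.38) did not pass, and its exposed and control libraries overlapped. SP1, which binds GC boxes like those of the CIRBP promoter, fell by 0.15 in A549 (adjusted p = 0.00432) and rose by 0.18 in 293T (adjusted p = 0.00226), and this difference between the lines passed its own test (-0.33, adjusted p = 0.00169). These are gene totals, and the table does not separate transcript forms.

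Other genes for proteins with RNA recognition motifs included genes called in each direction. Of 20 such genes, RBMX and its relatives among them, 19 were tested. In A549 5 rose and 6 fell (median 0.03), and in 293T 5 rose and 6 fell (median -0.01). The falls are near the shares of all genes called lower, 26.9% in A549 and 24.2% in 293T. The rises were above the shares of all genes called higher, 13.3% and 13.7%, and whether the list differs was not tested. After median centring, 8 rose and 3 fell in A549, where 2695 of all 13811 genes were called higher and 2525 lower. RBMX, an X-linked splicing factor, averaged 89.4 ± 3.13 FPKM in exposed A549 cells and 97.8 ± 2.17 FPKM in A549 controls, a log2 fold change of -0.13 (adjusted p = 0.00889). In 293T it averaged 174.0 ± 6.17 FPKM in exposed cells and 225 ± 3.72 FPKM in controls, a log2 fold change of -0.37 (adjusted p = 2.96e-05). SRSF5, an SR protein, fell by 0.33 in A549 and by 0.40 in 293T, and TRA2A, a splicing activator, rose by 0.37 in A549 and 0.35 in 293T. RBM14, a coactivator found in paraspeckles, rose by 0.31 in A549 and fell by 0.15 in 293T, and the difference passed its own test (0.47, adjusted p = 0.000574). SNRNP35, a protein of the minor spliceosome chosen after its values were seen, had the lowest A549 value of this list, -0.58, against the -0.81 of CIRBP. It reached at most 6.13 FPKM, and the log2(FPKM + 1) scale shrinks the falls of low genes.

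The cold shock domain proteins, another family named for cold but built on a different fold, had small log2(FPKM + 1) fold changes. That scale shrinks the falls of low genes, here LIN28B in A549 and CSDC2. Of 8 genes 6 were tested. None rose, and 3 fell in A549 (median -0.06) and 2 in 293T (median -0.01), where 26.9% and 24.2% of all genes were called lower. LIN28B, which blocks let-7 maturation, fell by 0.27 in A549 and by 0.16 in 293T, and was at 2.38 ± 0.171 FPKM in A549 controls and 23.7 ± 1.04 FPKM in 293T controls. CARHSP1 fell by 0.18 and YBX3 by 0.09 in A549, and CSDC2 fell by 0.17 in 293T at about 1 FPKM, with exposed and control libraries overlapping. The counts were unstable. Median centring gave 1 rise and 1 fall in A549 and 1 fall in 293T, quantile normalization gave 0 falls in 293T, and leaving out exposed replicate 3 of either line gave 1 fall in 293T. YBX1, the most abundant member, had log2 fold changes of 0.05 in A549 and 0.04 in 293T that did not pass.

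Transcripts that CIRBP or RBM3 have been reported to bind or regulate were counted in the same way. Of 20 such genes, which include clock components, 5 rose and 7 fell in A549 (median 0.02), and 8 rose and 4 fell in 293T (median 0.10). Of all genes, 13.3% were called higher and 26.9% lower in A549, and 13.7% higher and 24.2% lower in 293T. The falls in 293T are near that background, and the falls in A549 and the rises in both lines were above it. Whether the list of reported targets differs from other genes was not tested. Quantile normalization or median centring left 2 falls in 293T, where 2620 and 2720 of all 13811 genes were called lower. PER1 and PER3 encode repressors of the circadian clock. PER1 fell by 0.31 in A549 (adjusted p = 0.000875) and by 0.16 in 293T (adjusted p = 0.0373). PER3 averaged 1.03 ± 0.104 FPKM in exposed A549 cells and 1.84 ± 0.181 FPKM in A549 controls, a log2 fold change of -0.48 (adjusted p = 0.000132), and had -0.13 in 293T (adjusted p = 0.131). VEGFA, the angiogenic growth factor, rose by 0.17 in A549 (adjusted p = 0.0396) and 0.48 in 293T (adjusted p = 0.000182). CLOCK, a circadian activator whose mRNA is a reported CIRBP target, was looked up after its values were seen. It rose by 0.21 in 293T (adjusted p = 0.0211) and had 0.07 in A549 (adjusted p = 0.457).

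**Figure D4:**
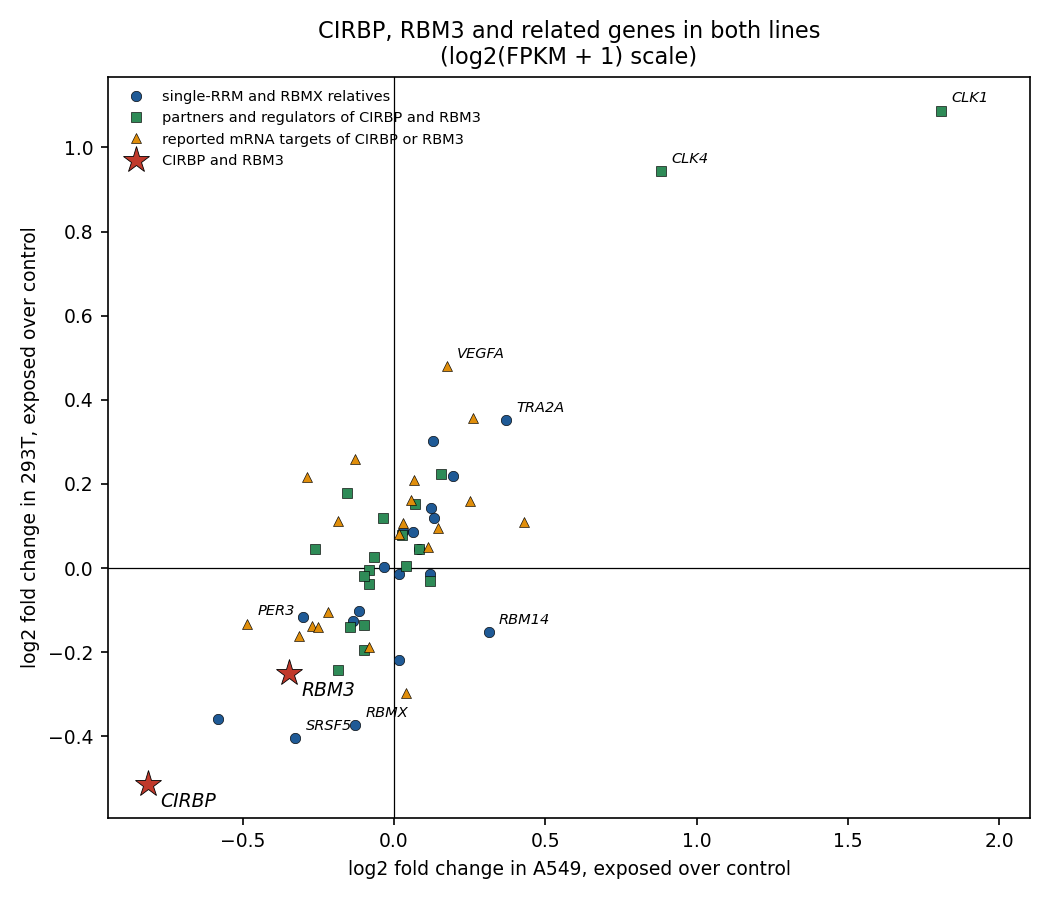
Log2 fold change, exposed over control, in A549 (horizontal axis) against 293T (vertical axis) for CIRBP, RBM3 and the tested members of 3 lists. The lists are other proteins with RNA recognition motifs (legend: single-RRM and RBMX relatives), partners and regulators, and reported target transcripts. Each point is 1 gene. On this log2(FPKM + 1) scale CIRBP lies lowest on both axes at -0.81 and -0.51, and CLK1 highest on both at 1.81 and 1.09. Most listed genes lie within 0.5 of 0. The scale shrinks the changes of low genes such as PER3 and SNRNP35, so the order need not hold in FPKM.

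CIRBP released from cells acts as an inflammatory signal through TLR4 with LY96, TREM1 and the IL6 receptor, and most genes of that system stayed below the filter on low values. Of 11 receptor, adaptor and cytokine genes only MYD88, CXCL8 and IL6R passed this filter, and the other 8 reached at most 0.730 FPKM in any library, in TLR4. MYD88, the adaptor of Toll-like receptors, fell by 0.20 in A549 (adjusted p = 0.00578) and by 0.20 in 293T (adjusted p = 0.00604). CXCL8, a neutrophil chemokine that is also on the list of reported targets, averaged 110 ± 26.9 FPKM in exposed A549 cells and 80.3 ± 0.760 FPKM in A549 controls, a log2 fold change of 0.43 (adjusted p = 0.0126). In 293T CXCL8 stayed under 1 FPKM and had 0.11 (adjusted p = 0.509), and IL6R was called in neither line.

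At the CIRBP locus, the antisense gene CIRBP-AS1 spans chr19:1267471-1270260 on the minus strand and shares 929 bp with CIRBP. It was at 0.460, 0.390 and 0.268 FPKM in exposed A549 libraries, against 0.398, 0.533 and 0.703 FPKM in A549 controls, which overlap. In 293T the antisense gene was at 1.81, 2.30 and 2.51 FPKM in exposed libraries, against 3.45, 2.90 and 3.39 FPKM in controls, without overlap. Its log2 fold changes were -0.17 in A549 (SE 0.09, adjusted p = 0.183) and -0.41 in 293T (SE 0.09, adjusted p = 0.00512). Mean FPKM of CIRBP-AS1 fell by nearly the same fraction, 31.6% in A549 and 32.2% in 293T. The log2(FPKM + 1) scale shrinks the A549 value, which was -0.44 with a pseudocount of 0.1 and still did not pass. The difference of 0.24 between the lines did not pass (adjusted p = 0.269) and ranged over 0.03 to 0.32 in the alternatives. A549 rests on 14 to 37 counts per library. No source used here tells whether strand was used in counting. If it was not, fragments of CIRBP and its antisense partner cannot be told apart where they overlap. RBM3 overlapped no annotated gene, and the annotation held no named copy of either gene.

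Of the 2 nearest protein-coding genes on each side of CIRBP 3 were tested, and none was called lower in both lines, as were 14.2% of all genes. Of the tested neighbours of RBM3, WDR13 and TBC1D25 were called lower in both lines and EBP was not. So few genes cannot set either locus apart from that share. MIDN, which lies 10189 bp before CIRBP and encodes a protein that delivers nuclear proteins to the proteasome, fell by 0.32 in A549 (adjusted p = 0.000298) and had 0.12 in 293T (adjusted p = 0.0682), and the difference passed its own test (-0.45, adjusted p = 0.00197). FAM174C, 650 bp after CIRBP, had -0.06 in A549 (adjusted p = 0.615) and -0.15 in 293T (adjusted p = 0.146). ATP5F1D, a subunit of ATP synthase, was called in neither line, and EFNA2 stayed at or under 0.383 FPKM. Beside RBM3, WDR13 fell by 0.22 in A549 (adjusted p = 0.00304) and by 0.31 in 293T (adjusted p = 0.000568), and TBC1D25 fell by 0.16 (adjusted p = 0.0216) and by 0.14 (adjusted p = 0.0493). EBP, an enzyme of cholesterol synthesis, was called in neither line. WAS stayed at or under 0.227 FPKM.

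Genes whose levels followed the pair most closely were found by Pearson's r of log2(FPKM + 1) over the 12 libraries, among 7600 protein-coding genes with a mean of at least 5 FPKM. These values describe shared patterns over libraries that share a line and an exposure. For CIRBP the closest were NDOR1, a diflavin reductase (r = 0.989), the corepressor scaffold SIN3A (r = 0.982), ASB13 and TRIM65 (r = 0.979). RBM3 itself ranked 399th for CIRBP with r = 0.834. After each line's mean was subtracted, the closest to CIRBP was SRXN1, which encodes sulfiredoxin (r = 0.996). Next came GPRIN1, the ubiquitin ligase TRIM25, the SUMO ligase PIAS3 and ZMYM3, and RBM3 ranked 118th with r = 0.962. For RBM3 the closest over the 12 libraries were GTF2H3, a subunit of the transcription factor TFIIH (r = 0.996), DHTKD1, GTPBP2, the lariat debranching enzyme DBR1 and RFWD3. After subtraction of the line means they were GTPBP2 (r = 0.986), ZC4H2, SLK, GTF2H3 and NMRAL1. CIRBP ranked 3150th for RBM3 over the 12 libraries and 48th after the subtraction. SIN3A fell by 0.80 in A549 and by 0.31 in 293T, close in A549 to the fall of CIRBP.

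The libraries held 37171616 to 38883963 counts each. The identity of the lines was checked with marker lists. All 10 A549 markers were higher in A549 controls than in 293T controls, with summed levels of 8290 to 8801 FPKM over the A549 libraries and 89.8 to 101 FPKM over the 293T libraries. Of 10 genes listed for 293T 6 were tested. In A549 controls 5 were lower, where 55.9% of all genes were, and MAP2, a microtubule protein named after its values were seen, was higher, at 0.762 FPKM in A549 controls and 0.122 FPKM in 293T controls. The list summed to 10.2 to 13.9 FPKM in A549 and 115 to 123 FPKM in 293T, while SOX11, STMN2 and ELAVL4 reached at most 0.0172, 0.0267 and 0.0221 FPKM in any library, in that order. Fibroblast markers summed to at most 5.11 FPKM and blood cell markers to at most 3.17 FPKM, with at most 0.00401 FPKM of PTPRC. In such bulk RNA, fewer cells with a transcript and less of it per cell cannot be told apart.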

How the data were processed

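RNA sequencing of 12 libraries from 2 cell lines was used. Per the labels' protocols, RNA was isolated with TRIzol, treated with DNase, selected on oligo(dT) beads and primed with random hexamers. The submitters' processing notes name fastp, HISAT2, HTSeq and GRCh38; versions and settings are not given there. The authors deposited FPKM, fragment counts per gene length and library total, for 26348 genes. Whole counts could be recovered for 100% of genes within 0.01 counts and served for depth and 1 alternative.

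Genes with at least 0.5 FPKM in at least 3 libraries were kept (13811, with 12537 removed). A linear model of log2(FPKM + 1) over all 12 libraries had a mean for each group, an intensity trend and 8 residual degrees of freedom (limma 3.58.1 under R 4.3.3). Low genes change by more than this scale shows. Every adjusted p is from this limma fit, two-sided, with Benjamini-Hochberg adjustment over all genes tested and a threshold of 0.05. Exposed cells were set against controls of their line, these effects were compared as A549 minus 293T, and A549 controls were set against 293T controls. Ratios of means are of mean FPKM. The CIRBP to RBM3 ratio was tested by exact permutation.

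The members and the 12 gene lists (141 entries) were chosen with earlier results of these data known, and the lists come from general knowledge of these genes. Named by rule were both members, overlapping genes and copies, the 2 nearest protein-coding genes on each side, the 4 members of each list with the smallest adjusted p, and the 5 genes with the highest correlation. Other genes named are marked, and 2 genes picked by the rule are not reported here. Of the listed gene identifiers 25419 matched RefSeq genes of GRCh38.p14, the source of the coordinates and promoters. BMAL1 is listed under its older symbol. Alternatives tried were no filter, a mean of at least 1 FPKM, a pseudocount of 0.1, quantile normalization, median centring, rescaling without mitochondrially encoded genes, TPM, no trend, only the groups of a contrast, the replicate number as a block, limma-voom on recovered counts, and each library left out. List counts without exposed replicate 3 were added after the data were seen. The fit was tested on simulated data. Python 3.11.15, pandas 2.3.3 and numpy 2.4.6 were used.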

Additional observations from a re-analysis of the deposited data

Results flagged for a closer look

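The fall of CIRBP in exposed cells differed between the lines by the test of the difference itself, but the call was fragile. The log2 fold change was -0.81 in A549 and -0.51 in 293T, and the difference, A549 minus 293T, was -0.30 with a limma adjusted p of 0.0474. The call was lost in 9 of 12 fits with 1 library left out and in 6 of 10 other alternatives. CIRBP was lower in 6 of 6 exposed libraries than in all controls of their line. The exposed libraries lay below the controls in this way for 32.6% of all genes tested in A549 and 30.8% in 293T. Over all genes 12.5% were called for a difference between the lines in either direction. The groups hold 3 libraries each, so no library was tested for standing apart from its group.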

How the results depend on the processing

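The exposure effects of CIRBP and RBM3 in both lines, their baseline differences and the RBM3 difference between the lines kept their direction and their side of the threshold under every alternative run. Over all 8 results on the pair, 167 of 182 alternative values did so, none reversed, and the other 15 all belong to the CIRBP difference between the lines. That difference did not pass with a pseudocount of 0.1 (-0.32, adjusted p = 0.0558), without a filter on low values (-0.30, adjusted p = 0.105), after quantile normalization (-0.28, adjusted p = 0.0547), after median centring (-0.27, adjusted p = 0.0606), in TPM (-0.31, adjusted p = 0.051) or without a trend (-0.30, adjusted p = 0.0569). With 1 library left out it ranged over -0.37 to -0.25. The cause was not tested. On recovered counts limma-voom gave -0.32 and passed (adjusted p = 0.0285). Leaving out 1 library gave log2 fold changes of -0.89 to -0.76 for CIRBP in A549, -0.56 to -0.47 for CIRBP in 293T, -0.37 to -0.31 for RBM3 in A549 and -0.28 to -0.23 for RBM3 in 293T. Same-numbered exposed and control libraries did not deviate together, with correlations across genes of -0.14 to 0.000139, so the numbers were not taken as pairs. With the replicate block the CIRBP difference was -0.30 (adjusted p = 0.0283), and no call on the pair changed. Of the list counts 147 of 160 alternative values stayed within 1.5 times the count reported, and 13 moved. The depth of CIRBP-AS1, at most 37 counts in A549, limits its result there.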
